A study of Homo sapiens with 31 samples.

Results

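The comparison described here set 3 libraries of MCF10A cells taken 15 h after release into full growth medium with 1 µM palbociclib against 3 libraries taken at 15 h in the same medium with 0.1% DMSO, the vehicle. These 6 libraries were chosen by their labels, out of 31 in all, and every log2 change is palbociclib over DMSO unless stated. MCF10A is a non-transformed human breast epithelial line, here a single line with no genetic change between groups. All cells had been held for 2 to 3 days without serum, EGF or insulin, with hydrocortisone and cholera toxin kept, before the full medium was given back. Messenger RNA was read in poly(A) libraries. Starved cells taken at 0 h, vehicle libraries of 6, 9, 12 and 24 h and drug libraries of 9, 12 and 24 h are used for comparison, with 2 libraries in each 24 h group and 3 in the others. Whether replicate libraries came from separate cultures is not in the labels. The p-values below set each change against the spread between libraries of a group, estimated over all 31 libraries. That spread can therefore be technical.

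Palbociclib inhibits CDK4 and CDK6, the kinases that D-type cyclins activate when growth factors return. These kinases phosphorylate RB1 and its relatives, the pocket proteins, which otherwise hold E2F transcription factors in a repressing state at promoters of S-phase genes. Cyclin E and cyclin A2 with CDK2 then carry the cell through S phase, and a later set of genes, driven through MYBL2 and FOXM1, supplies mitosis. In quiescent and G1-arrested cells, complexes of pocket proteins with E2F4 or E2F5, including the DREAM complex, keep both sets low.

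The 6 libraries held between 11498534 and 18659327 counts. Mitochondrial transcripts took 3.08% to 3.90% of the counts. The leading axis of variation within groups, which held 27.5% of the within-group variance, set 2 of the palbociclib libraries apart. Replicate 1 had a score of -31.6, the lowest of all 31 libraries, and replicate 3 had 27.2, the highest, while the 3 DMSO libraries lay between -11.1 and 12.0. Basal epithelial markers were all detected (14 of 14 tested) and none of them passed the test at 15 h. Their summed level was 32467 to 34470 CPM (reads scaled to library size) with palbociclib and 32216 to 32728 CPM with DMSO. Luminal, mesenchymal and blood or endothelial markers are given at the end.

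At 15 h, 1387 genes were lower and 340 were higher with palbociclib among the 15787 tested. The call required an adjusted p (Benjamini-Hochberg, over all 15787 genes) below 0.05 in edgeR's quasi-likelihood test. These were 8.79% and 2.15% of the genes tested. The falls were much larger than the rises. A fall of at least 2-fold was seen for 420 genes (2.66%), of at least 4-fold for 221 and of at least 16-fold for 76, whereas only 6 genes (0.038%) rose by at least 2-fold. The median log2 change was -0.54 among genes called lower, 0.27 among those called higher and 0.01 over all genes tested. The 3 libraries of each group did not overlap for 1372 of the 1387 lower genes and 321 of the 340 higher ones, against 25.1% of all genes tested (15.7% with palbociclib on the lower side). The number of rises depended on single libraries. It was 600 without palbociclib replicate 1, 207 without palbociclib replicate 3, 166 without DMSO replicate 1 and 180 without DMSO replicate 2. With library totals in place of TMM scaling (edgeR's default normalization factors), the median over all genes was 0.03, and 595 genes were higher and 1305 lower, which put 31.3% of the calls on the higher side against 19.7% with TMM.

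**Figure D1:**
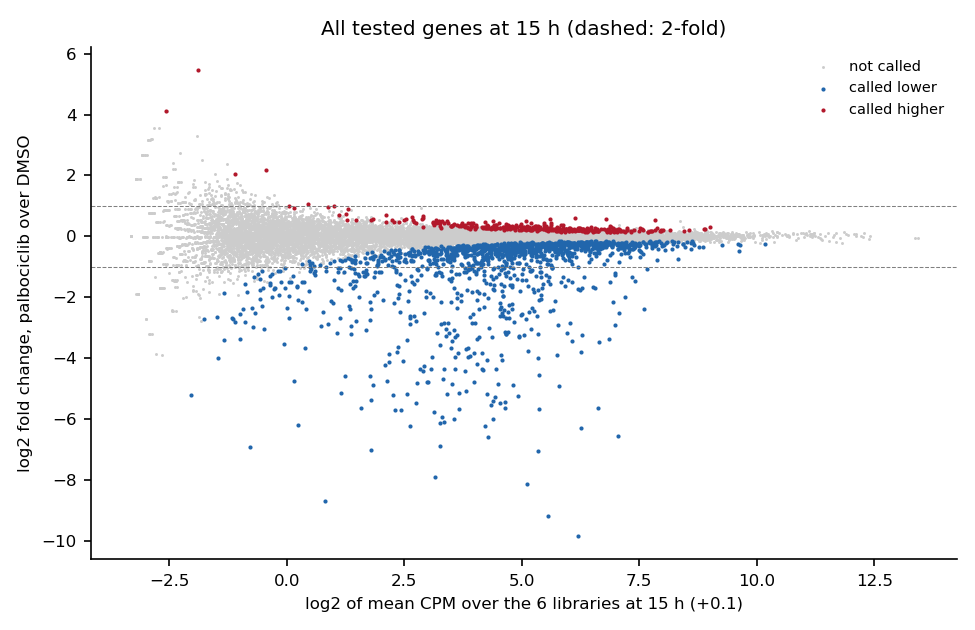
Log2 change with palbociclib at 15 h (vertical axis) against log2 of the mean CPM of the 6 libraries (horizontal axis) for all 15787 genes tested, with genes called lower in blue and higher in red. The calls below 0 reach -9.83 (FAM111B), whereas only 6 called genes lie at 1 or above.

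Cell-cycle genes made up a large share of the larger falls. Of the 215 tested members of 11 cell-cycle lists, 205 were lower, 175 of them by at least 2-fold, against the 8.79% and 2.66% of all genes given above. Those 175 made up 41.7% of the 420 genes that fell by at least 2-fold. In bulk RNA, fewer cells in a given phase and less of a transcript in each cell cannot be told apart. The lists are taken in turn below, from the kinases that palbociclib inhibits to mitosis.

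**Figure D2:**
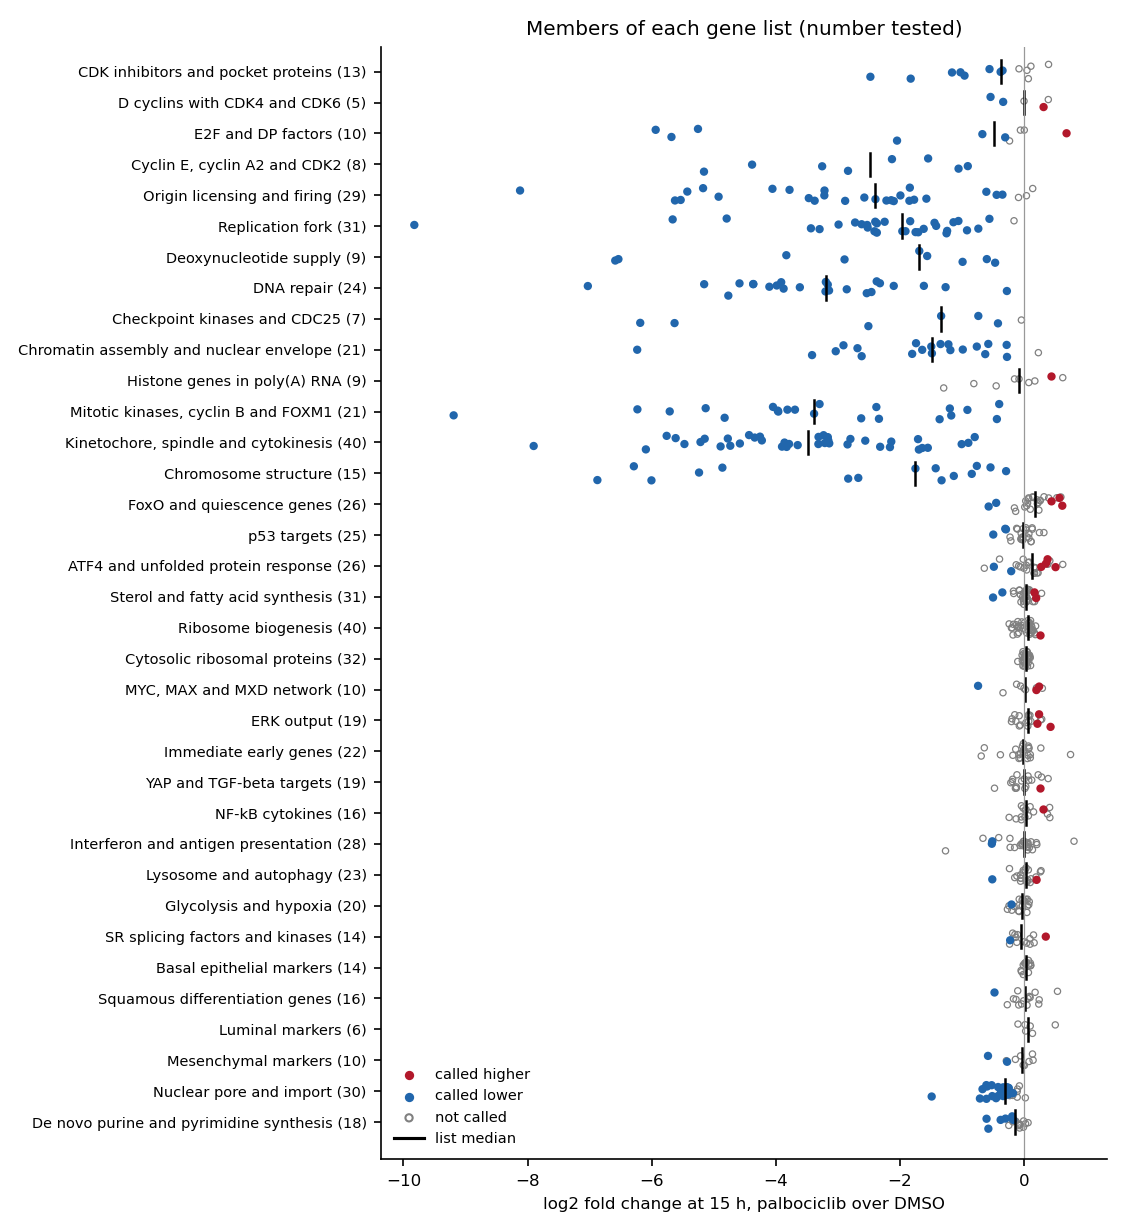
Log2 change with palbociclib at 15 h for every tested member of the gene lists (the 3 tested blood and endothelial markers are not drawn), 1 point per gene, filled where called, with the list's median as a bar. The licensing, repair, mitotic and kinetochore lists have medians between -2.40 and -3.48, while the FoxO, ERK, ribosomal and marker lists centre near 0.

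Among the 5 genes for D-type cyclins, CDK4 and CDK6, changes were small. CCND1, which encodes cyclin D1, stood at 546, 601 and 550 CPM in the 3 palbociclib libraries and at 460, 440 and 465 CPM with DMSO. Every palbociclib library was above every DMSO library, with a log2 change of 0.31 ± 0.10 (SE, edgeR adjusted p = 2.97e-02). Leaving out any library other than palbociclib replicate 1 ended this call, at log2 changes of 0.28 to 0.33. CDK4 was lower, with 36.6, 34.2 and 32.6 CPM against 48.7, 52.8 and 48.5 CPM, a log2 change of -0.54 ± 0.08. The counting did not use strand, and 43.2% of CDK4's exonic bases overlap a gene on the other strand, so its reads cannot all be assigned with certainty. CCND3 (cyclin D3) fell by 0.34 ± 0.06 on the log2 scale. CDK6 had a log2 change of -0.00 and CCND2 (cyclin D2) of 0.39, with overlapping libraries for CCND2 (184, 161 and 112 CPM against 132, 85.0 and 132 CPM), and neither passed the test.

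Of 13 tested genes for CDK inhibitors, pocket proteins and DREAM subunits, 8 were lower and none was higher. RBL1, which encodes the pocket protein p107, fell most. It had 10.6, 11.1 and 10.7 CPM with palbociclib and 60.6, 61.0 and 58.5 CPM with DMSO. The groups were far apart and tight within, at a log2 change of -2.48 ± 0.09 (edgeR adjusted p = 3.26e-21). RB1 itself was slightly lower, with 104, 129 and 127 CPM against 145, 155 and 160 CPM and a log2 change of -0.35 ± 0.07. RBL2, which encodes p130, the pocket protein of the DREAM complex in resting cells, had a log2 change of 0.05 and did not pass the test. The DREAM and MuvB subunits LIN9 (-1.16), LIN54 (-1.03), LIN52 (-0.96) and RBBP4 (-0.56) were lower, while LIN37 (0.39) did not pass the test. CDKN2C, which encodes the CDK4/6 inhibitor p18, fell by 1.83 ± 0.21 on the log2 scale. CDKN1A, which encodes the CDK2 inhibitor p21, had 184, 181 and 206 CPM with palbociclib and 248, 258 and 236 CPM with DMSO, so all palbociclib libraries were lower (log2 change -0.38 ± 0.08). CDKN1B, which encodes p27, overlapped between groups (19.8, 21.6 and 20.0 CPM against 17.4, 22.1 and 18.9 CPM), and CDKN1B, CDKN1C (p57) and CDKN2D (p19) did not pass the test.

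The E2F and DP family split by member: 6 of 10 were lower and 1 was higher. E2F1 (chr20:33675683-33686404, minus strand, GRCh38), a transcriptional activator, had 1.36, 1.15 and 0.819 CPM with palbociclib and 43.4, 45.9 and 36.4 CPM with DMSO. The mean was 38.2-fold lower with the drug, at a log2 change of -5.25 ± 0.21 (edgeR adjusted p = 1.64e-22). E2F2, another activator, stood at 0.426, 0.0547 and 0.504 CPM against 21.7, 19.7 and 16.3 CPM, a log2 change of -5.94 ± 0.42. The third activator, E2F3, changed far less, by -0.31 ± 0.06. The atypical repressors E2F8 (-5.68 ± 0.62) and E2F7 (-2.05 ± 0.09) also fell. E2F8 had 0.170, 0.383 and 0 CPM with palbociclib, 9 reads in all, so the size of its fall is uncertain. E2F7 kept 16.4, 16.9 and 16.1 CPM with palbociclib, and its mean with the drug at 9 h had been 14.1 CPM. TFDP1, the main dimer partner of E2F proteins, fell by 0.67 ± 0.07. E2F4, E2F6 and TFDP2 did not pass the test, at log2 changes of -0.06, -0.23 and 0.00.

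E2F5, a repressive E2F that binds p130 and p107, was the family's only called rise. It had 9.03, 9.47 and 8.57 CPM with palbociclib and 6.90, 4.41 and 5.81 CPM with DMSO. All 3 palbociclib libraries were above the DMSO libraries, at a log2 change of 0.68 ± 0.15 (edgeR adjusted p = 1.11e-03), and 18.6% of its exonic bases overlap a gene on the other strand. Its DMSO means were 11.3 CPM at 6 h, 5.70 CPM at 15 h and 10.9 CPM at 24 h, and its palbociclib means were 9.49 CPM at 9 h, 9.02 CPM at 15 h and 10.0 CPM at 24 h.

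E2F binds short words related to TTTCGCGC near gene starts. The 80 bases before the annotated start of E2F1, RBL1, DTL (a substrate receptor that clears the licensing factor CDT1) and CDC25A (the phosphatase that activates CDK2) are shown because each of these genes fell by at least 2.48 on the log2 scale and each stretch holds an exact E2F word. In the same 80 bases, CCNE1, CCNA2, CDC6 and MCM2 held none of the exact words searched, and nothing is drawn from that. They are from RefSeq on GRCh38.p14, written on the strand of the gene, with E2F words in capitals: E2F1 at chr20:33686386-33686465 (minus), RBL1 at chr20:37095998-37096077 (minus), DTL at chr1:212035668-212035747 (plus) and CDC25A at chr3:48188418-48188497 (minus).
E2F1: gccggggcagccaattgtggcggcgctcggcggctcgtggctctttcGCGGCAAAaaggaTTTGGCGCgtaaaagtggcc
RBL1: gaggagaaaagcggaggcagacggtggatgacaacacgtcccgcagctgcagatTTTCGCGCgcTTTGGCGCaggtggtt
DTL: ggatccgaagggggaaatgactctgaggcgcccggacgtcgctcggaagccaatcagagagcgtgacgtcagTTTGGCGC
CDC25A: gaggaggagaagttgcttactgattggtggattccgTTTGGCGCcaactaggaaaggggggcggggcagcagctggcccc

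The words searched were TTTCCCGC, TTTCGCGC, TTTGCCGC and TTTGGCGC, on both strands. In E2F1 the words began 33 and 20 bases before the start, and in RBL1 26 and 16 bases before it. Over promoters of 300 bases (250 before to 50 after the start), 3.31% of all 35116 in the RefSeq table, which also covers genes not tested here, held such a word. Of the 103 promoters of the licensing, fork, deoxynucleotide and repair genes described next, 38 did (36.9%), with 81.7% of these 93 genes matched to the table and some genes having several overlapping promoters. For genes called lower by less than 2-fold, 111 of 1209 promoters did (9.18%), and for genes called higher, 10 of 403 (2.48%). The shares over all tested genes and over the genes lower by at least 2-fold are not given, since only 70.3% and 76.0% of them were matched. A match describes the sequence and does not show binding.

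All 8 genes of the cyclin E, cyclin A2 and CDK2 list were lower, 7 by at least 2-fold, with a median log2 change of -2.48. CCNE1, which encodes cyclin E1, had 4.18, 6.35 and 3.84 CPM with palbociclib and 20.9, 22.8 and 20.2 CPM with DMSO, at a log2 change of -2.13 ± 0.15. CCNE2 (cyclin E2) fell by 5.16 ± 0.30, with 37.1% of its exonic bases overlapping a gene on the other strand. CCNA2, which encodes cyclin A2, had 1.53, 1.81 and 1.51 CPM against 34.5, 38.6 and 29.3 CPM, a log2 change of -4.38 ± 0.21. The drug libraries of all of these genes lay clearly below the vehicle libraries. CDK2 fell by 1.55 ± 0.08, with 16.8% of its exonic bases overlapping a gene on the other strand, and CDC25A by 3.25 ± 0.13. FBXO5, an inhibitor of the APC/C ubiquitin ligase, was at -2.84, CKS1B, a CDK subunit, at -1.06, and SKP2, the ubiquitin ligase subunit that marks p27 for destruction, at -0.91.

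**Figure D3:**
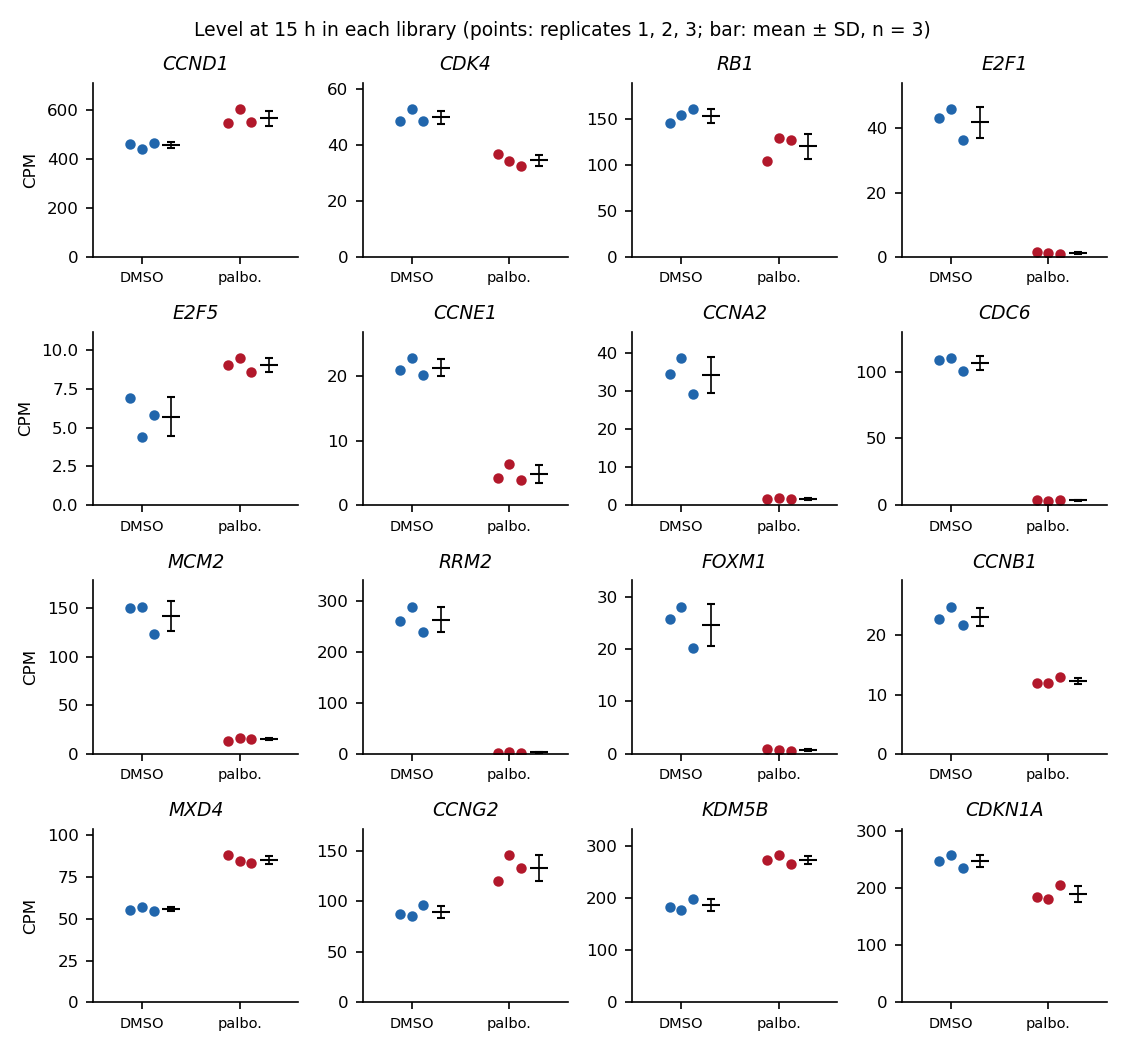
CPM in each of the 3 palbociclib and 3 DMSO libraries at 15 h for 16 genes, 1 panel per gene with its own axis from 0, and the mean ± SD (n = 3) beside the points. E2F1, CCNA2, CDC6 and RRM2 sit near 0 in all 3 palbociclib libraries, CCNB1 is closer between groups (12.0 to 12.9 CPM against 21.8 to 24.8 CPM), and MXD4, CCNG2 and KDM5B are higher with palbociclib.

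Of 29 tested genes for origin licensing and firing, 26 were lower, 23 of them by at least 2-fold, and none was higher. The median log2 change was -2.40, against 0.01 over all genes. CDC6, which loads the MCM helicase, had 4.09, 2.96 and 3.66 CPM with palbociclib and 109, 110 and 100 CPM with DMSO. That was 30.3-fold lower, at a log2 change of -4.92 ± 0.15 (edgeR adjusted p = 4.70e-24). MCM2, a helicase subunit, had 13.5, 16.1 and 15.7 CPM against 150, 151 and 123 CPM (-3.22 ± 0.09). The subunits did not fall by the same amount: MCM5 was at -3.78, MCM7 at -3.47, MCM4 at -2.40, MCM6 at -2.14 and MCM3 at -1.99. The firing factors MCM10 (-8.12) and CDC45 (-5.53), the loader CDT1 (-5.43) and ORC1 (-5.17), the origin recognition subunit known to cycle, fell most, with DTL (-5.63 ± 0.13). ORC3 was at -0.35, and ORC2 (0.04), ORC4 (0.14) and ORC5 (-0.09) did not pass the test.

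Replication fork genes were lower in 30 of 31 cases, 27 by at least 2-fold, with a median of -1.96. FAM111B, a protease gene of unsettled role, had the largest fall of all genes tested. It had 0.170, 0.219 and 0.0630 CPM with palbociclib, 7 reads in all, and 149, 156 and 132 CPM with DMSO, at a log2 change of -9.83 ± 0.58. PCNA, the sliding clamp, kept more of its transcript, at 37.1, 40.3 and 41.7 CPM against 217, 243 and 225 CPM (-2.52 ± 0.07). Polymerase and clamp loader subunits spanned a wide range, from PRIM1 at -3.44 through RFC3 at -2.37 and POLA1 at -1.44 to RFC1 at -0.56. POLD2, a subunit of polymerase delta, did not pass the test at -0.16.

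All 9 genes of deoxynucleotide supply were lower, with a median of -1.69. RRM2, the regulated subunit of ribonucleotide reductase, had 2.39, 3.61 and 2.27 CPM with palbociclib and 261, 288 and 239 CPM with DMSO. This was 92.9-fold lower, at a log2 change of -6.54 ± 0.18. Its partner RRM1, the large subunit, fell by 1.69. TK1 (thymidine kinase) was at -6.59 ± 0.34 and TYMS (thymidylate synthase) at -3.83. In a list of purine and pyrimidine synthesis genes that was added after values were seen, 6 of 18 were lower, none by 2-fold, with a median of -0.14. GMPS, which makes GMP, fell by 0.58 ± 0.05 there.

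All 24 DNA repair genes were lower, 23 by at least 2-fold, with a median of -3.20. BRCA1, of homologous recombination, had 5.03, 5.14 and 4.22 CPM with palbociclib and 78.4, 75.6 and 74.3 CPM with DMSO, at a log2 change of -3.99 ± 0.10. EXO1, a nuclease, fell by 7.03 ± 0.30 and FANCI, of the Fanconi anaemia pathway, by 3.20. MSH6, of mismatch repair, was at -1.27, and PALB2, the partner of BRCA2, was at -0.28. Of 7 checkpoint and CDC25 genes, 6 were lower. CDC25C and PKMYT1, which act on CDK1, were at -6.19 ± 1.21 and -5.63. CDC25C had 1 read in all with palbociclib and a mean of 2.16 CPM with DMSO, so the size of its fall is uncertain. WEE1 was at -2.51 ± 0.15 and CHEK1 at -1.34 ± 0.08, while ATR (-0.04) did not pass the test.

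Chromatin assembly and nuclear envelope genes were lower in 20 of 21 cases, 14 by at least 2-fold, with a median of -1.49. LMNB1, which encodes lamin B1, had 11.1, 12.3 and 11.2 CPM with palbociclib and 120, 130 and 120 CPM with DMSO (-3.42 ± 0.08). ASF1B, a histone chaperone of dividing cells, was at -6.23, whereas its paralogue ASF1A did not pass the test at 0.23. UHRF1, which guides maintenance DNA methylation, was at -2.91 ± 0.08 and DNMT1, the methyltransferase it recruits, at -1.35. Of 9 tested histone genes, none was lower and 1, HIST1H2AC, was higher (0.44), a call lost if DMSO replicate 1 or 2 or palbociclib replicate 2 or 3 was left out (0.35 to 0.46). Most replication-dependent histone mRNA carries no poly(A) tail, so these libraries do not sample it. In a nuclear pore and import list added after values were seen, 22 of 30 genes were lower, but only NUP210 (-1.49) by 2-fold. NUP107, a scaffold subunit, had 43.1, 44.7 and 45.0 CPM against 73.0, 73.8 and 70.9 CPM (-0.71 ± 0.06).

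Mitotic genes were lower as a group at 15 h. All 21 genes for mitotic kinases, cyclin B and FOXM1 were lower (median -3.38), as were all 40 kinetochore, spindle and cytokinesis genes (median -3.48) and all 15 chromosome structure genes (median -1.75). MYBL2, which encodes B-MYB, the factor that converts the DREAM core into an activator, had 0, 0.0547 and 0.378 CPM with palbociclib, 7 reads in all, and 99.6, 104 and 78.3 CPM with DMSO (-9.19 ± 0.71). FOXM1, a mitotic activator, had 0.852, 0.711 and 0.567 CPM against 25.7, 28.1 and 20.2 CPM (-5.13 ± 0.25). MKI67, the gene for the proliferation marker Ki-67, had 1.62, 2.08 and 2.02 CPM against 157, 165 and 133 CPM (-6.29 ± 0.27). Every palbociclib library was far below every DMSO library for these 3 genes. CDK1 was at -4.05 ± 0.15, BIRC5 (survivin) at -6.09 ± 0.47, PLK1 at -3.38 ± 0.25 and KIF20A, a kinesin of cytokinesis, at -3.79 ± 0.30. BIRC5 had only 13 reads in all with palbociclib. CCNB1, which encodes cyclin B1, was much less affected at this time, with 12.0, 12.0 and 12.9 CPM against 22.8, 24.8 and 21.8 CPM. The groups did not overlap, and the log2 change was -0.91 ± 0.10 (edgeR adjusted p = 2.88e-08). CKS2 (-0.44) and UBE2S (-0.40) also fell by less than 2-fold.

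Promoters of this second set are shown for a different element, the cell-cycle genes homology region (CHR, TTTGAA), the known contact of the DREAM and MYBL2 complexes. Each stretch shown holds that word. In the same 80 bases, CCNB1, KIF20A and PSRC1 held neither the word nor its reverse complement. EGR1 and DDX10, which were not lower at 15 h, held the reverse complement. Nothing is drawn from that. The 80 bases before the start are from RefSeq on GRCh38.p14 on the gene's strand, with TTTGAA or its reverse complement in capitals: ANLN at chr7:36389782-36389861 (plus), MKI67 at chr10:128126424-128126503 (minus), PLK1 at chr16:23678809-23678888 (plus) and BUB1B at chr15:40160989-40161068 (plus).
ANLN: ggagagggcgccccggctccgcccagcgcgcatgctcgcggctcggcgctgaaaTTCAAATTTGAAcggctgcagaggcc
MKI67: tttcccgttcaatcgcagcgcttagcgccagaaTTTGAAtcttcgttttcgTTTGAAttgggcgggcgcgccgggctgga
PLK1: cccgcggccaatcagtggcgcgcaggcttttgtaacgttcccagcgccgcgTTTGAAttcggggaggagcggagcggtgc
BUB1B: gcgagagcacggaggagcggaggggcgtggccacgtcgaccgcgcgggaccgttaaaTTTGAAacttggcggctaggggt

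The word TTTGAA, on either strand and in no overlap with the E2F words, was present in 36 of 58 promoters of the mitotic kinase and kinetochore genes (62.1%, with 83.6% of 61 genes matched), against 15.2% of all 35116 promoters. It was present in 6 of the 103 promoters of the S-phase lists (5.83%). The E2F words stood the other way, in 6 of 58 mitotic promoters (10.3%) and 36.9% of the S-phase promoters. CCAAT was found in 75.9% and 51.5% of these promoters and in 34.6% of all. These shares describe lists that were chosen by function with earlier results of these data known, and no test was made of them.

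The drug effect at 15 h was larger than at 9 h for most of these genes, and none of the libraries was shared between times. In edgeR's test of the difference between the effects, 618 genes (3.91%) had a more negative effect at 15 h than at 9 h, and 21 (0.133%) a more positive one (10 without DMSO replicate 2 of 15 h). Among them were 39 of 40 kinetochore genes, 20 of 21 mitotic kinase genes, 28 of 31 fork genes and 23 of 29 licensing genes. The differences were largest for MYBL2 (-5.97 ± 0.93), BIRC5 (-5.26 ± 0.63), MKI67 (-5.21 ± 0.41), FOXM1 (-4.89 ± 0.36) and RRM2 (-4.81 ± 0.26). For E2F1 the effect had been -4.34 at 9 h and for CDC6 -4.27, and the differences to 15 h (-0.92 and -0.65) did not pass the test. FOXM1, in contrast, had an effect of -0.24 at 9 h.

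Against 12 h, 100 genes (0.633%) had a more negative effect at 15 h and 1 (0.00633%) a more positive one. Without palbociclib replicate 2 of 12 h the first number was 66. Among the 100 were 5 of 9 deoxynucleotide genes, 8 of 15 chromosome structure genes, 19 of 40 kinetochore genes, 9 of 31 fork genes and 6 of 21 mitotic kinase genes. The cyclin E, cyclin A2 and CDK2 list gave 2 of 8, chromatin assembly and nuclear envelope 4 of 21, licensing 5 of 29 and repair 4 of 24. BIRC5 (-2.70 ± 0.60), MKI67 (-2.47 ± 0.38), KIF20A (-2.39 ± 0.43), FOXM1 (-2.37 ± 0.33) and DIAPH3 (-2.20), an actin nucleator of cytokinesis, differed most, though the BIRC5 call was lost without palbociclib replicate 3 of 12 h or palbociclib replicate 2 or 3 of 15 h (-2.48 to -2.24). The single gene above 0 was RCSD1, which had no read in any DMSO library at 15 h.

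**Figure D4:**
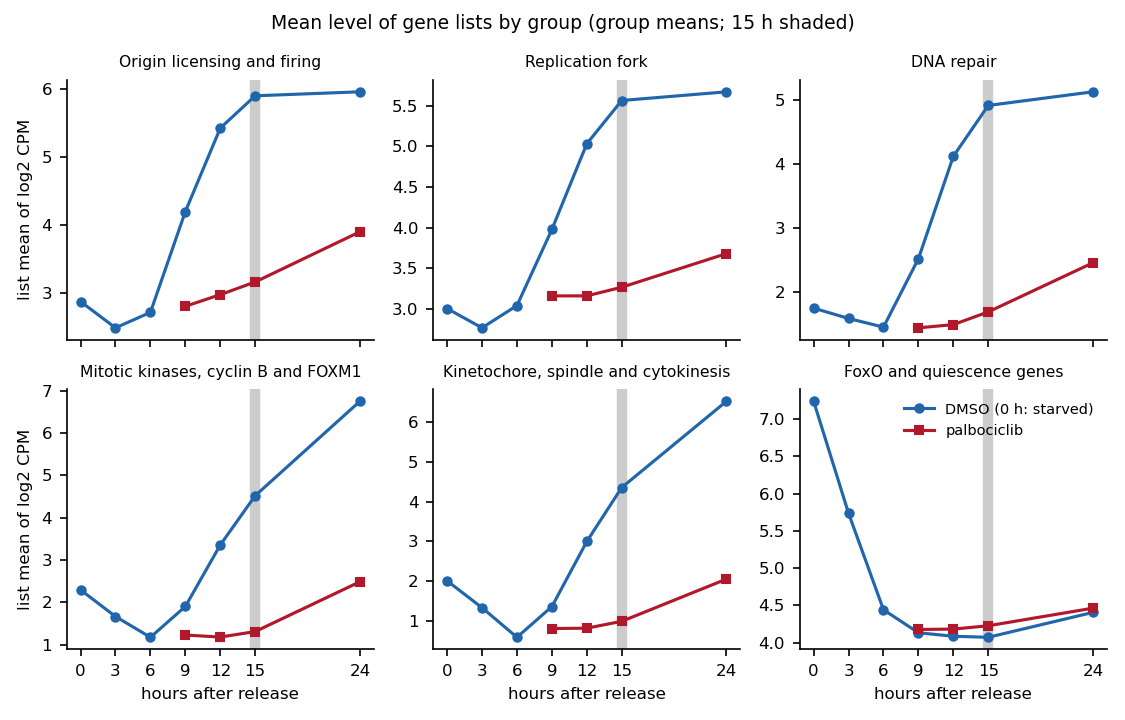
Mean log2 CPM of 6 gene lists in each library group by hours after release (means only, without error bars), for DMSO in blue and palbociclib in red, with starved cells at 0 h. At 15 h the kinetochore list is at 1.00 with palbociclib and 4.35 with DMSO, and the FoxO list, which was at 7.24 at 0 h, is at 4.23 with palbociclib and 4.07 with DMSO.

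Placed on the time course, the palbociclib libraries at 15 h had S-phase and mitotic levels near those of starved cells or of cells 6 h after release. The mean log2 CPM of the licensing list was 2.87 at 0 h, 2.71 with DMSO at 6 h and 3.16 with palbociclib at 15 h, against 5.90 with DMSO at 15 h. For the repair list these values were 1.74, 1.44, 1.68 and 4.91. For the kinetochore list they were 2.01, 0.60, 1.00 and 4.35. Between 9 and 15 h with palbociclib, the licensing list went from 2.80 to 3.16 and the kinetochore list from 0.82 to 1.00, while with DMSO they went from 4.19 to 5.90 and from 1.37 to 4.35. Most of the move between these times was in the vehicle libraries. The FoxO and quiescence list stood at 7.24 at 0 h and at 4.23 with palbociclib at 15 h, so the palbociclib libraries were far from the starved ones on this list. INSR, the insulin receptor gene, had a mean of 131 CPM at 0 h, 19.1 CPM with palbociclib and 28.3 CPM with DMSO at 15 h.

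From 15 to 24 h the S-phase and mitotic genes went in different directions. The drug effect became less negative or more positive for 167 genes (1.06%) and moved the other way for 303 (1.92%). The first number was 101 without DMSO replicate 1 and 84 without palbociclib replicate 2 of 15 h, and 83, 75 and 67 without DMSO replicate 1, DMSO replicate 3 and palbociclib replicate 1 of 24 h. The second was 184 without palbociclib replicate 1 of 24 h. Of the licensing genes, 13 of 29 were in the first set and 2 in the second, and of the repair genes 9 of 24 and none. E2F1 had an effect of -2.52 at 24 h, a difference of 2.74 ± 0.28 from 15 h (edgeR adjusted p = 3.3e-08). Its palbociclib mean went from 1.11 to 3.51 CPM and its DMSO mean from 41.9 to 20.2 CPM. FAM111B (4.47 ± 0.62), CDC6 (2.23 ± 0.21), DTL (2.14 ± 0.18) and EXO1 (2.01 ± 0.38) were the others with the largest positive differences.

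For the kinetochore genes the order was reversed, with 22 of 40 in the second set and 1 in the first. The named genes with the largest differences came from the whole second set (averaging 1 or more in log2 CPM), not from the kinetochore list alone. They were KIF20A (-3.59 ± 0.44), PLK1 (-3.27 ± 0.36), PSRC1 (-3.16 ± 0.31), a spindle protein gene, NEURL1B (-2.87 ± 0.33) and DEPDC1 (-2.74 ± 0.30). CCNB1 went from -0.91 at 15 h to -3.35 at 24 h, a difference of -2.44 ± 0.15, as its DMSO mean went from 23.1 to 241 CPM and its palbociclib mean from 12.3 to 23.6 CPM. CDKN1B, which did not pass the test at 15 h, had a more negative effect at 24 h, with DMSO means of 19.5 and 36.2 CPM and palbociclib means of 20.5 and 19.1 CPM. The 24 h groups have 2 libraries each.

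**Figure D5:**
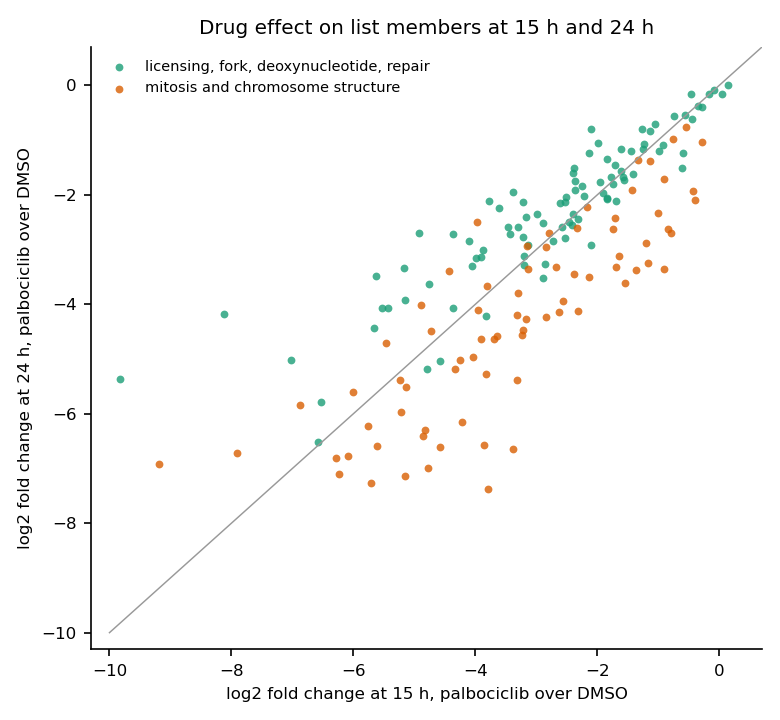
Log2 drug effect at 15 h (horizontal axis) against that at 24 h (vertical axis) for members of the S-phase lists in green and of the mitotic and chromosome structure lists in orange, with the line of equal effect. CDC6 (-4.92 and -2.69) and FAM111B (-9.83 and -5.36) lie above the line, and PLK1, KIF20A and CCNB1 lie below it (CCNB1 at -0.91 and -3.35).

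The rises at 15 h were small. MXD4, which encodes a MAX partner that opposes MYC, had 87.8, 84.6 and 83.3 CPM with palbociclib and 55.3, 56.9 and 54.4 CPM with DMSO. The groups were well separated, at a log2 change of 0.61 ± 0.06 (edgeR adjusted p = 4.16e-10), and the effect was 0.17 at 9 h, 0.49 at 12 h and 1.00 at 24 h. CCNG2, which encodes cyclin G2, a FoxO target, had 120, 145 and 133 CPM against 87.1, 85.8 and 96.4 CPM (0.57 ± 0.07). KDM5B, a histone H3 lysine demethylase gene, had 272, 282 and 266 CPM against 183, 178 and 199 CPM (0.55 ± 0.05, edgeR adjusted p = 1.48e-09), with an effect of 0.05 at 9 h. All 3 palbociclib libraries exceeded all DMSO libraries for CCNG2 and KDM5B. KLF8, a zinc finger repressor gene, was at 0.51 ± 0.07.

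Of 26 FoxO and quiescence genes, 3 were higher, a share above the 2.15% of all genes, and 2 were lower, near the 8.79% of all genes. The libraries of the 2 groups did not overlap, in either direction, for 14 of the 26, against 25.1% of all genes. The list's median was 0.18. The higher members were MXD4, CCNG2 and TOB1, an antiproliferative gene at 0.44 ± 0.13. The TOB1 call was lost when DMSO replicate 1 (0.33), palbociclib replicate 2 (0.30), or replicate 3 of all palbociclib groups and of DMSO at 24 h together (0.48) were left out. INSR (-0.57 ± 0.11) and YPEL3 (-0.45 ± 0.13) were lower, and the YPEL3 call was lost without replicate 1 or 2 of either group (-0.45 to -0.35). Both were higher at 0 h, with means of 131 and 101 CPM. The named genes with the largest rises had low counts. TGM5, a transglutaminase gene, was at 0.98 ± 0.25, with a mean of 2.53 CPM against 1.30 CPM. RNF39 was at 0.95 ± 0.27 and KLHL31 at 0.89 ± 0.24. Calls were lost for TGM5 without DMSO replicate 2 or palbociclib replicate 2 (0.76 and 0.85), for RNF39 without DMSO replicate 2 or 3 or palbociclib replicate 3 (0.77 to 0.81), and for KLHL31 without DMSO replicate 2 or palbociclib replicate 3 (0.83 and 0.78).

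The 6 genes past a 2-fold rise were named after their values were seen. RCSD1 had 0.341, 0.493 and 0.189 CPM with palbociclib and no read with DMSO, and NID1 had 0.170, 0.0547 and 0.189 CPM against no read. A fitted fold change for these 2 depends on the prior count and is not given. The others were AC005592.1 (2.18), LINC00896 (2.05), SPATA17 (1.07) and RP11-44N21.1 (1.01). The number of such genes was 10, 16, 11 and 12 without DMSO replicate 2, DMSO replicate 3, palbociclib replicate 2 and palbociclib replicate 3.

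MYC and its network showed little change. MYC had 378, 385 and 374 CPM with palbociclib and 324, 306 and 297 CPM with DMSO. The libraries did not overlap, but the log2 change of 0.29 ± 0.11 did not pass the test (edgeR adjusted p = 7.47e-02), though it passed under 8 alternatives at 0.29 to 0.32. MAX (0.24) and MLX (0.20) were higher and MXD3 (-0.74), the MXD member known to be expressed in S phase, was lower. Each of these 3 calls was lost on leaving out any of several libraries: MAX for palbociclib replicates 2 and 3 and DMSO replicates 1 and 3 (0.23 to 0.25), MLX for replicates 2 and 3 of either group (0.16 to 0.20), and MXD3 for palbociclib replicates 1 and 3 and DMSO replicates 1 and 2 (-0.76 to -0.62). Of the growth-factor outputs, 3 of 19 ERK output genes were higher (EREG at 0.43, DUSP4 at 0.24 and PHLDA1 at 0.21), against 2.15% of all genes, and none was lower. DUSP4 was lost without DMSO replicate 2 (0.21), and EREG and PHLDA1 without DMSO replicate 1 or 2 or palbociclib replicate 2 (0.41 and 0.18 to 0.19). None of 22 immediate early genes passed the test, with FOS at 0.10 and EGR1 at -0.02.

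Biosynthetic lists were close to level. The counts below stand beside 2.15% of all genes higher and 8.79% lower. None of 32 cytosolic ribosomal protein genes and 1 of 40 ribosome biogenesis genes (DDX10, 0.25) passed the test, with medians of 0.03 and 0.06. Of 31 sterol and fatty acid genes, 2 were higher, among them MSMO1 at 0.19, and 2 lower (FADS1 at -0.50 and FADS2 at -0.35). Leaving out palbociclib replicate 3 ended the calls of DDX10 (0.21), MSMO1 (0.16) and MAP1LC3B (0.15), and leaving out palbociclib replicate 1 that of FADS2 (-0.22). Of 26 ATF4 and unfolded protein response genes, 4 were higher, against 2.15% of all genes, and 2 lower, a share near the 8.79% of all genes. SLC7A11, the cystine transporter gene, was at 0.51 ± 0.11, ASNS (asparagine synthetase) at 0.38 and HERPUD1 at 0.28. DDIT4 was at 0.35, with 41.2% of its exonic bases overlapping a gene on the other strand. PHGDH (-0.49), of serine synthesis, and SLC7A1 (-0.21) were lower. Of these 6 calls SLC7A11 was kept whichever library was left out, HERPUD1 was lost without DMSO replicate 1 (0.25) and PHGDH without replicate 2 of either group (-0.41 and -0.40). ASNS (0.28 to 0.41), DDIT4 (0.31 to 0.36) and SLC7A1 (-0.22 to -0.17) were each lost under at least 4 of the 6 omissions. Of 20 glycolysis and hypoxia genes, 1 was lower (PFKFB3, -0.20, lost under 5 omissions), and of 23 lysosome and autophagy genes 1 was higher (MAP1LC3B, 0.20) and 1 lower (GLA, -0.51). MSMO1 was also lost without DMSO replicate 1 or 3 or palbociclib replicate 2 (0.18 to 0.19), and MAP1LC3B without DMSO replicate 2 (0.19).

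Stress and signalling lists gave few calls, beside 2.15% of all genes higher and 8.79% lower. Of 25 p53 targets, none was higher and 3 were lower, a share near that of all genes. The 3 were DDB2 (-0.50 ± 0.08), POLH (-0.30) and BAX (-0.29), and the list had a median of -0.02. MDM2 did not pass the test at -0.05. This list does not hold CDKN1A, which was counted in the CDK inhibitor list and was lower (-0.38 ± 0.08). Among 28 interferon and antigen presentation genes, 2 were lower, OAS3 (-0.52), an antiviral enzyme gene, and MB21D1 (-0.51), which encodes the DNA sensor cGAS, a share near the 8.79% of all genes that were lower. AJUBA (0.25) was the only YAP and TGF-beta target of 19 to pass, and IL1A (0.31) the only NF-kB cytokine gene of 16. In the list named SR splicing factors and kinases, SRSF10 (-0.23) and TTC14 (0.35) were the only ones of 14 genes to pass. Calls were lost for BAX without replicate 1 or 2 of either group (-0.26 to -0.22), AJUBA without DMSO replicate 2 (0.21), IL1A without DMSO replicate 1 or palbociclib replicate 2 (0.25 and 0.26), and SRSF10 without DMSO replicate 2 or palbociclib replicate 1 or 3 (-0.21 to -0.18).

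Markers of other cell types or states gave few calls, beside 2.15% of all genes higher and 8.79% lower. None of 6 tested luminal markers passed, with summed levels of 700 to 724 CPM with palbociclib and 657 to 721 CPM with DMSO. The luminal list has 11 genes, of which 3 had no count at 15 h. Of 10 tested mesenchymal markers, CDH2 (-0.58 ± 0.12), which encodes N-cadherin, and FN1 (-0.27 ± 0.06), which encodes fibronectin, were lower. The FN1 call was lost with the exon length trend removed (-0.24). The summed mesenchymal level was 1742 to 1800 CPM against 1831 to 1955 CPM. Blood and endothelial markers summed to 9.27 to 13.3 CPM against 9.93 to 10.9 CPM, with 3 of 12 tested and none called. Among 16 squamous differentiation genes, IVL (involucrin) was lower (-0.49 ± 0.10), and their summed level was 142 to 154 CPM against 147 to 161 CPM. The part of these markers in the other results was not tested.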

How the data were processed

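Poly(A) RNA of MCF10A cells was sequenced by the submitters with a stranded kit and 75 nt single reads, per the labels' protocols. FastQC 0.11.3, TopHat2 2.1.1, Bowtie2 2.2.9, Subread 1.5.1 and GRCh38.p7 are named in the submitters' processing notes. The authors counted reads by gene name with featureCounts 1.5.1 on GENCODE 25 exons without a strand option, per the file headers, and deposited these counts with no normalization, so reads of overlapping genes on opposite strands were not told apart. Names on more than 1 chromosome (178) are merged.

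The counts of all 31 libraries in 11 groups were fitted together in R 4.3.3 with edgeR 4.0.16 (quasi-likelihood, TMM, filterByExpr, 20 residual degrees of freedom), which left 15787 of 56269 names. The biological coefficient of variation was 6.55%. Standard errors (SE) are from the fit's weights and posterior dispersion, since those derived from F were too small for genes with few reads. CPM uses TMM-scaled totals. A difference between drug effects was tested in the same fit. Adjusted p-values cover all genes tested. Tests were tried on simulated data first. Pairs of libraries at 15 h differed by more than sampling noise (chi-square per degree of freedom 3.14 to 11.4).

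Members and gene lists were chosen with earlier results of these data known: 34 lists, and 2 more (nuclear pore and import, purine and pyrimidine synthesis) added after these data were seen, so list counts are descriptions. Genes named are all tested members of the cyclin D, E2F, cyclin E and CDK inhibitor lists, the 12 largest rises and falls at 15 h among called genes averaging 1 or more in log2 CPM whose libraries do not overlap, up to 4 members each way of other lists by smallest p (up to 3 against the direction of a list), the 5 largest each way in each difference between drug effects, and MYC, MCM2, CDC6, CCNB1, FOS, EGR1 and KANK4 (-0.01). Further list members are given as examples of their list's range and were chosen with values in view. Alternatives were DESeq2 1.42.0, other scalings (RLE, library totals), no filter, an exon length correction, the within-group axis as covariate, a replicate block, fewer libraries and an adjusted p below 0.01. Promoters are from RefSeq on GRCh38.p14. Some genes that this rule names are not reported here.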

Additional observations from a re-analysis of the deposited data

Results flagged for a closer look

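Drug effects at 15 h that differed from those at another time are collected here, since the same contrast gave another size of effect; each passed edgeR's test of the difference at an adjusted p below 0.05. Against 9 h, 21 genes had a more positive and 618 a more negative effect at 15 h. The named ones were MYBL2 (-5.97), BIRC5 (-5.26), MKI67 (-5.21), FOXM1 (-4.89) and RRM2 (-4.81) on the negative side. On the positive side were TGM5 (1.10), ZNF283 (0.64), SLC16A4 (0.60), KLF8 (0.53) and KDM5B (0.51). The TGM5 and SLC16A4 calls were each lost under 13 of the alternatives, at 0.88 to 1.14 and 0.48 to 0.64.

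Against 12 h, 1 gene was above 0 and 100 were below. BIRC5 (-2.70), MKI67 (-2.47), KIF20A (-2.39), FOXM1 (-2.37) and DIAPH3 (-2.20) were named, and the BIRC5 call was lost under 5 alternatives (-2.70 to -1.88).

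For 24 h less 15 h, 167 genes were above 0 and 303 below. FAM111B (4.47), E2F1 (2.74), CDC6 (2.23), DTL (2.14) and EXO1 (2.01) had effects less negative at 24 h. KIF20A (-3.59), PLK1 (-3.27), PSRC1 (-3.16), NEURL1B (-2.87) and DEPDC1 (-2.74) had effects more negative at 24 h.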

How the results depend on the processing

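No named result changed direction under the alternatives run. The number of genes lower at 15 h (1387; 1095 to 1269 on leaving out a library of 15 h), lower by at least 2-fold (420; 401 to 420) and more negative than at 9 h (618; 500 to 597) stayed within 1.5 times under every alternative. The cause of the shifts below was not tested. Genes higher (340) numbered 595 with library totals, 145 with no filter, 593 with the axis covariate, 169 without 5 libraries (replicate 3 of DMSO at 24 h and of the 4 palbociclib groups), 100 at an adjusted p below 0.01 and 166 to 600 on leaving out a library. Genes higher by at least 2-fold (6) numbered 3 with DESeq2, 10 with the axis covariate, 13 without the 5 libraries, 2 at 0.01 and 5 to 16 on leaving out a library. Genes more positive than at 9 h (21) numbered 33 with RLE, 33 with the exon length correction, 42 with totals, 46 with no filter, 75 with the axis covariate, 10 without the 5 libraries, 6 at 0.01 and 10 to 29 on leaving out a library. Genes more positive than at 12 h (1) numbered 2 with no filter, and those more negative (100) 59 without the 5 libraries, 60 at 0.01 and 66 to 107 on leaving out a library. For 24 h less 15 h, genes above 0 (167) numbered 106 with the contrast's libraries only, 353 with the axis covariate, 49 without the 5 libraries, 61 at 0.01 and 67 to 160 on leaving out a library. Those below 0 (303) numbered 502, 139 and 180 under the last 3 of these alternatives and 184 to 421 on leaving out a library.

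At 15 h, replicate numbers were not taken to pair palbociclib with DMSO libraries: deviations of same-numbered libraries correlated at 0.0270, 0.0536 and -0.249, and palbociclib replicates 1 and 3 correlated best with another number. In the 0 h and DMSO groups up to 15 h the within-group axis did follow the number, with scores of 12.0 to 24.8 in every replicate 2 and -18.5 to -7.51 in every replicate 3. With a replicate block, 484 genes were higher and 1547 lower at 15 h, and 32 more positive than at 9 h. With the block and only the contrast's libraries, 37 genes were more positive than at 9 h, 0 more positive than at 12 h, and 263 above 0 for 24 h less 15 h. At these depths a few reads separate groups for genes such as RCSD1 and NID1.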
